A study of Mus musculus with 8 samples.

Results

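Fos and Jun proteins are the core subunits of the transcription factor AP-1, and their transcripts were followed here in STHdh striatal cells with and without overexpression of Bcl11b, a zinc finger transcription factor of striatal projection neurons. The members were all array probes whose symbol was Fos, Fosb, Fosl1, Fosl2, Jun, Junb or Jund. This rule found 5 genes among the 18120 symbols on the array, Fos, Fosb, Fosl1, Jun and Junb, each with 1 of the 25697 probes. No probe carried the symbol Fosl2 or Jund, and these 2 of the 7 genes were not analysed here. RNA from 8 samples was hybridized to 8 Illumina MouseRef-8 v2 bead arrays, 4 from cells transfected with Bcl11b and 4 from cells that received the empty pcDNA3.1 vector, called mock here. Both groups came from the same line of wild-type striatal progenitors, conditionally immortalized from embryonic mouse tissue, and were harvested 2 days after transfection. The Bcl11b plasmid was pcDNA3.1 carrying the beta isoform of the mouse cDNA. The labels name the mock samples both by the vector and as wild-type. Transfection was transient, so a culture mixes cells that did and did not take up plasmid. In RNA from whole cultures, more transcript per cell and more cells with the transcript cannot be told apart. The labels number the samples within a group without saying that they are separate cultures, and p-values measure the spread between these samples.

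Within these families, an AP-1 dimer joins a Jun protein with a Fos protein or with another Jun. It binds the TPA response element or the related cAMP response element. Fos and Jun are textbook immediate early genes, transcribed within minutes of growth factor, calcium or stress signals, whereas the Fos-related antigens encoded by Fosl1 and Fosl2 follow more slowly. In the striatum, Fos marks recently activated neurons, and a truncated product of Fosb accumulates with repeated stimulation.

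The members were compared by the letters of 5 short motifs just upstream of their starts. Elements farther upstream were not searched. The 150 bases before the RefSeq start (GRCm38.p6) are printed 5′ to 3′ for Fos and the 3 other measured members with an entry. Printed too are those of Atf3, an AP-1 partner, and of Mmp13, a collagenase gene known for its AP-1 site. Both Atf3 and Mmp13 were higher with Bcl11b. No other listed partner, input or target was examined in this way, so the motifs cannot be set against the changes. Entries existed for 6 of the 7 members, the missing one being Fosl1. Capitals mark the letters of 5 motifs searched on both strands, which were the AP-1 site TGACTCA, the cAMP response element TGACGTCA, its core TGACG (which also lies within TGACGTCA), the AP-1-like site TGACATCA and the TATA box TATAAA.
Fos, chr12:85473740-85473889, plus strand: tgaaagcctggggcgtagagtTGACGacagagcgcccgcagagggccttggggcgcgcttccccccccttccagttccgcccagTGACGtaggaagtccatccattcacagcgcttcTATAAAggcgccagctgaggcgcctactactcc
Fosb, chr7:19310046-19310195, minus strand: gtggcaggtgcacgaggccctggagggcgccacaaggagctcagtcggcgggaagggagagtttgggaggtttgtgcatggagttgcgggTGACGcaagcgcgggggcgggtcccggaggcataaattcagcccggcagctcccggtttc
Jun, chr4:95052223-95052372, minus strand: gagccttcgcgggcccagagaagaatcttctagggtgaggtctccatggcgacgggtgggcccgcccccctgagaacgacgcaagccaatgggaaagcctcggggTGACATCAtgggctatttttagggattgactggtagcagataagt
Junb, chr8:84978749-84978898, minus strand: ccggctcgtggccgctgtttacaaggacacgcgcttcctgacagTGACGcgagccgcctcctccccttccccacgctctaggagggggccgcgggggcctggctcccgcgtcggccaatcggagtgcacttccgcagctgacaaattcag
Atf3, chr1:191183334-191183483, minus strand: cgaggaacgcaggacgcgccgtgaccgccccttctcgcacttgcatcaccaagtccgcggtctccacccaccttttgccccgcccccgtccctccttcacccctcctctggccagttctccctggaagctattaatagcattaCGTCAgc
Mmp13, chr9:7272364-7272513, plus strand: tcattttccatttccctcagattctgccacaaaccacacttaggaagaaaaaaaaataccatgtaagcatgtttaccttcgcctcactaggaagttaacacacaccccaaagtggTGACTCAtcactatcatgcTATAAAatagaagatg

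Fos held TGACG at 129 to 125 and again at 66 to 62 bases before its start, with TATAAA at 33 to 28 bases. Fosb held TGACG at 60 to 56 bases and Junb at 106 to 102 bases, while Atf3 held it on the opposite strand at 7 to 3 bases. In Jun the match was TGACATCA, 45 to 38 bases before the start. Mmp13 held TGACTCA at 35 to 29 bases and TATAAA at 16 to 11 bases. Among 32851 mouse promoter windows of the same length, 13.3% held TGACG, 2.32% TGACATCA, 2.84% TGACTCA, 1.36% TGACGTCA and 7.57% TATAAA. A match of letters is a description, not a site in use.

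As deposited, the Bcl11b arrays were the dimmer ones, with median signals from 20.1 to 30.2 against 31.6 to 53.9 for mock. Between 10121 and 10784 probes were detected per mock array and between 10342 and 10644 per Bcl11b array, detection being a deposited p-value under 0.01 against the negative control beads, and 9360 probes were detected on all 8 arrays. The only Bcl11b probe was detected on 0 arrays, so it gives no check of the labels, and where it lies relative to the transfected cDNA is not given in the sources used here. Within groups, 65.8% of the variance of the detected probes lay on 1 component, with mock replicates 2 and 4 and Bcl11b replicate 4 on one side and the other arrays on the opposite side. The progenitor markers Nes, Sox2 and Vim were detected on every array. Of the fibroblast markers with a probe, Col1a1 was detected on every array and Col1a2 on none. The defining markers of striatal projection neurons with a probe (Ppp1r1b, Drd1a, Drd2 and Adora2a) were detected on none, nor were those of microglia (Aif1, Cx3cr1 and Csf1r). The study itself reported Ppp1r1b and other striatal markers in these cells by PCR, and Present calls on its arrays for most striatal-enriched genes it listed. Of the general neuron markers with a probe, Map2 was detected on every array, Syp on 1 and Tubb3 and Snap25 on none. Of the astrocyte markers, Slc1a3 was detected on 3 mock arrays and 1 Bcl11b array, and Gfap and Aqp4 on none.

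Fos rose about 3-fold with Bcl11b, and none of the other 4 measured subunits passed the test. The Fos probe (ILMN_2750515) reports c-Fos, the founding member of the family. Its log2 normalized signal was 7.86, 7.45, 7.29 and 7.51 on mock arrays 1 to 4 and 9.05, 9.22, 8.96 and 9.26 on Bcl11b arrays 1 to 4. Every Bcl11b array lay above every mock array, and the gap between the groups was wider than the spread within either. The means were 7.52 ± 0.24 (SD, n = 4) and 9.12 ± 0.14 (SD, n = 4), a difference of 1.60 in log2 signal (standard error 0.13). This is 3.03-fold with a 95% interval of 2.42 to 3.79, and the adjusted p from limma was 0.0137. The probe was detected on all 8 arrays, with its weakest detection p-value, 0.00125, on mock array 2. Among the 9360 probes detected on every array, Fos ranked 4 by the size of its increase. Without normalization between arrays the log2 difference was 0.87 and the adjusted p from limma 0.143. With that setting the median log2 change of all probes was -0.49, relative to which Fos was 1.36 higher. The median of the probes detected on every array was -0.68, relative to which Fos was 1.56 higher.

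**Figure D1:**
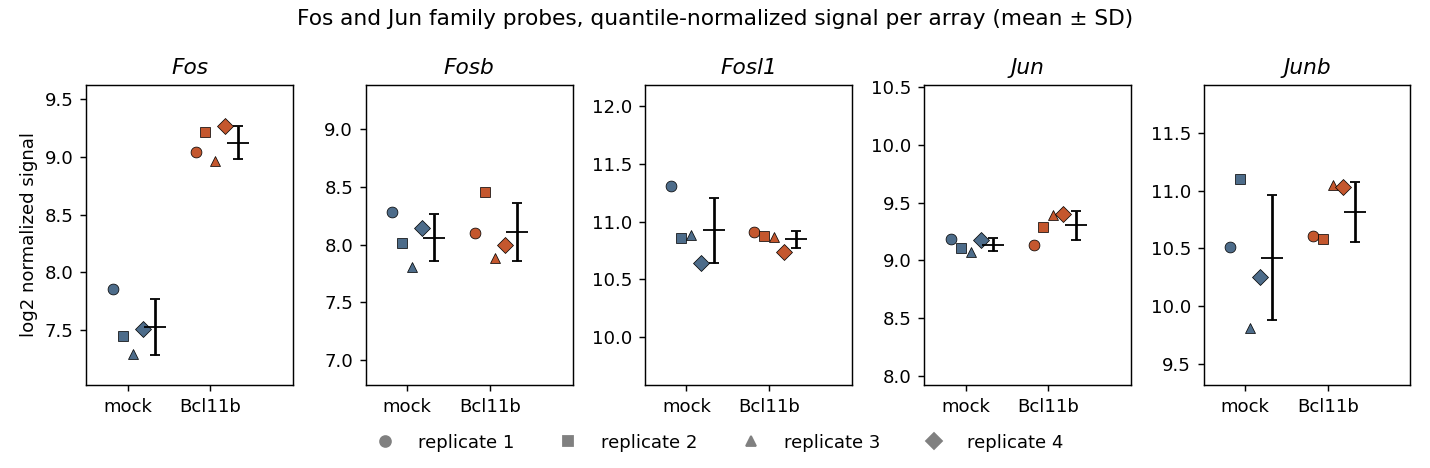
Log2 normalized signal of the Fos, Fosb, Fosl1, Jun and Junb probes on each of the 4 mock (blue) and 4 Bcl11b (orange) arrays, with marker shape giving the replicate number, bars giving mean ± SD, and every panel spanning the same log2 range. The Fos groups are apart (means 7.52 and 9.12), and in the other 4 panels the groups overlap.

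The other Fos-family members showed no difference that passed the test. Fosb (ILMN_2778279), which encodes FosB and its truncated form, had log2 normalized signals of 8.28, 8.02, 7.80 and 8.14 on the mock arrays and 8.10, 8.46, 7.88 and 7.99 on the Bcl11b arrays. The arrays of the groups interleaved, and the highest value was that of Bcl11b replicate 2. The difference in log2 signal was 0.047 (95% interval -0.33 to 0.42, adjusted p from limma = 1), an interval that holds changes of up to 1.34-fold upward. Fosl1 (ILMN_2649550) encodes Fra-1, a Fos protein without the transactivation domain of c-Fos. Its log2 normalized signals were 11.31, 10.86, 10.88 and 10.64 on the mock arrays and 10.91, 10.87, 10.86 and 10.74 on the Bcl11b arrays. The Bcl11b values lay inside the mock range, which was set by a high mock replicate 1 and a low mock replicate 4. The difference in log2 signal was -0.078 (95% interval -0.42 to 0.26, adjusted p from limma = 1). The sign of both differences turned when single arrays were left out, and no direction is given for either gene.

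Among the Jun proteins, Jun (ILMN_2646625) encodes c-Jun, the main partner of c-Fos and a substrate of the JNK kinases. Its log2 normalized signals were 9.19, 9.11, 9.07 and 9.17 on the mock arrays and 9.13, 9.29, 9.39 and 9.40 on the Bcl11b arrays. Of the Bcl11b arrays only replicate 1 fell inside the mock range, and the others lay above it. The difference was 0.17 in log2 signal, or 1.12-fold (95% interval 1.01 to 1.26), with an unadjusted p from limma's model over all probes of 0.0418 and an adjusted p of 0.453. With the detection filters at 0.01 and 0.05 the unadjusted p from limma was 0.204 and 0.215. With division by the array median it was 0.00393 (log2 difference 0.22), so the unadjusted p depended on the setting. The spread of Jun within groups was small (pooled SD 0.097), larger than that of 2.40% of the probes detected on every array. Junb (ILMN_1220034) encodes JunB, which activates transcription less strongly than c-Jun and can hold it back. Its log2 normalized signals were 10.51, 11.10, 9.81 and 10.25 on the mock arrays and 10.60, 10.58, 11.05 and 11.04 on the Bcl11b arrays. Most Bcl11b values lay above most mock values, but mock replicate 2 was the highest of all arrays. The difference was 0.40 in log2 signal (95% interval -0.30 to 1.10, adjusted p from limma = 0.775), with a pooled SD of 0.43, larger than that of 81.5% of the probes detected on every array. Without mock replicate 2 it was 0.63 with an unadjusted p from limma of 0.0341 and an adjusted p of 0.317.

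At an adjusted p under 0.10, 1 of the 5 member probes was called, Fos, and it was higher with Bcl11b. Across all probes 0.981% were called, 0.354% higher (91 probes) and 0.627% lower (161 probes), and among probes detected on every array 0.299% were called higher. Division by the array median in place of quantile normalization gave 100 higher and 46 lower, so the balance of directions across all probes depended on the scaling. At an unadjusted p under 0.05 with a log2 change of at least 0.32 in either direction, Fos was again the 1 member called, against 9.02% of all probes, 3.20% higher and 5.81% lower. Groups of arrays that did not overlap and were higher with Bcl11b were seen for 1 member, Fos, for 2.05% of all probes and for 2.50% of those detected on every array.

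Before normalization, when the Bcl11b arrays were dimmer as a whole, the members other than Fos lay lower with Bcl11b. The deposited Fos signal was 333.8, 162.1, 186.7 and 263.3 on mock arrays 1 to 4 and 426.5, 443.7, 282.7 and 559.8 on Bcl11b arrays 1 to 4. Bcl11b replicates 1, 2 and 4 exceeded every mock array, while Bcl11b replicate 3 lay below mock replicate 1. The deposited Fosb signal was 449.9, 238.8, 268.1 and 401.4 on the mock arrays and 215.5, 258.7, 131.1 and 240.9 on the Bcl11b arrays. The deposited Fosl1 signal was 3887, 1573, 2361 and 2097 on the mock arrays and 1643, 1435, 1084 and 1490 on the Bcl11b arrays. For both genes every mock array but replicate 2 lay above all Bcl11b arrays. The deposited Jun signal was 871.9, 488.7, 657.5 and 781.6 on the mock arrays and 457.6, 466.2, 383.3 and 612.7 on the Bcl11b arrays. The deposited Junb signal was 2219, 1831, 1104 and 1638 on the mock arrays and 1329, 1147, 1233 and 1821 on the Bcl11b arrays. The same held for Jun, while the Junb groups overlapped more widely, and Fos was the only measured subunit with a higher mean log2 signal in the Bcl11b group on this scale. The log2 differences without normalization were -0.68 for Fosb, -0.75 for Fosl1, -0.53 for Jun and -0.28 for Junb, and relative to the median of all probes they were -0.19, -0.26, -0.041 and 0.22. Relative to the median of the probes detected on every array (-0.68) they were 0.0057, -0.063, 0.15 and 0.41, so the sign for Fosb and Jun depended on the reference.

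**Figure D2:**
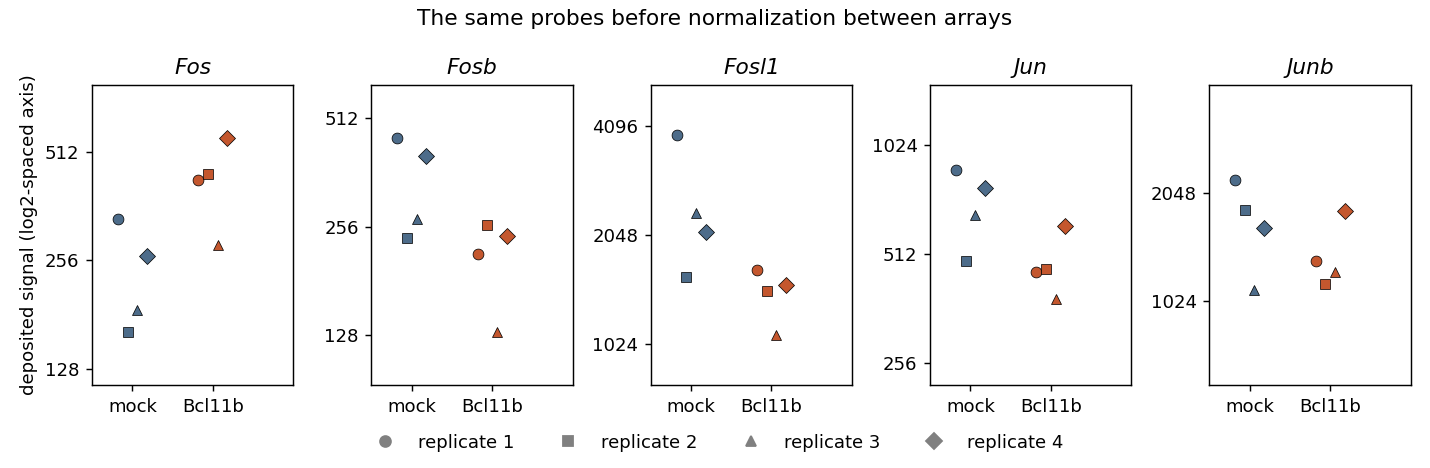
Deposited background-subtracted signal of the same 5 probes on a log2-spaced axis, by array (mock blue, Bcl11b orange, marker shape for the replicate number). On this scale, before normalization, Bcl11b replicates 1, 2 and 4 lie above all mock arrays for Fos, while for Fosb, Fosl1 and Jun the highest values are those of mock arrays.

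**Figure D3:**
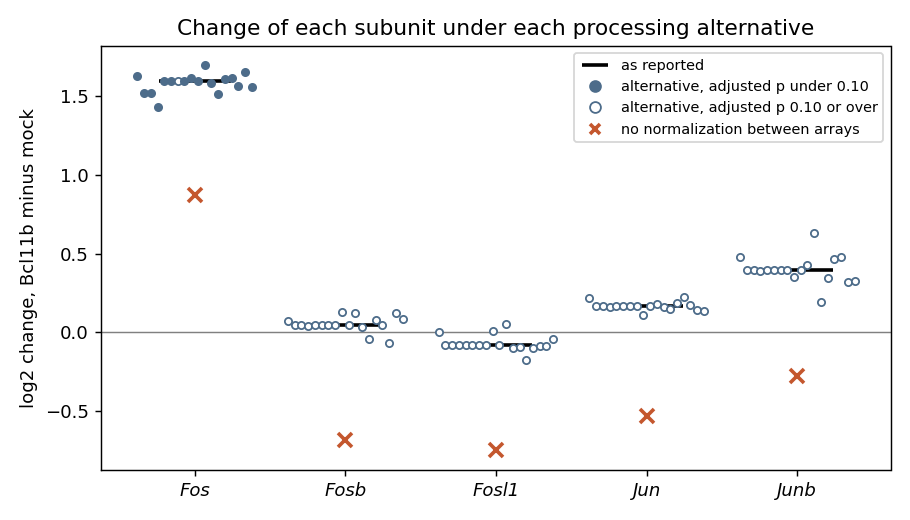
Log2 difference between Bcl11b and mock for each subunit as reported (black line), under each processing alternative (circles, filled where the adjusted p is under 0.10) and without normalization between arrays (orange cross). The Fos circles lie near 1.60 and the cross at 0.87, while the circles of Fosb and Fosl1 scatter around 0 and the crosses of the other 4 genes lie below 0.

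Whether Fos changed more than the other subunits was tested on differences within each array, in which a factor common to the probes of an array cancels. Levels of different probes are not comparable, so only the change of each difference between the groups is read. The log2 Fos signal minus that of Fosb was -0.43, -0.57, -0.52 and -0.64 on the mock arrays and 0.94, 0.76, 1.08 and 1.27 on the Bcl11b arrays. The groups were apart, and the difference was higher in the Bcl11b group by 1.55, or 2.93-fold. Fos minus Jun was -1.33, -1.66, -1.78 and -1.67 on the mock arrays and -0.086, -0.074, -0.43 and -0.14 on the Bcl11b arrays. These groups were apart too, by 1.43 on average, so Fos changed 2.69-fold relative to its main partner. Relative to Fosl1 the Fos signal rose by 1.68 and relative to Junb by 1.20 on the log2 scale. Each of these 4 comparisons gave p = 0.0286 in an exact two-sided permutation test, the smallest p that 4 against 4 arrays allow, and 0.0357 after Benjamini-Hochberg adjustment over 5 pairs. The remaining pair was Fos against Atf3, where the groups overlapped and the change was 0.13 (exact permutation p = 0.571, adjusted p = 0.571). Without normalization between arrays the changes were 1.55 against Fosb, 1.62 against Fosl1, 1.41 against Jun and 1.15 against Junb, with the same adjusted exact permutation p of 0.0357.

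**Figure D4:**
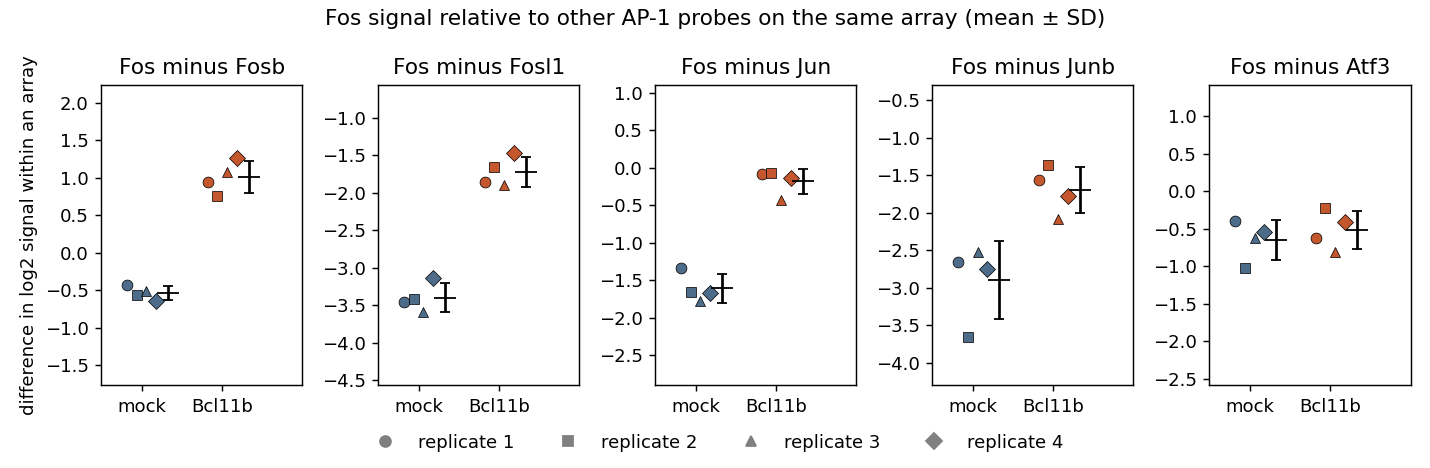
Difference between the log2 normalized signal of Fos and that of Fosb, Fosl1, Jun, Junb or Atf3 on the same array, for 4 mock (blue) and 4 Bcl11b (orange) arrays with mean ± SD. Against the 4 other subunits the groups are apart, by 1.20 to 1.68, and against Atf3 they overlap.

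Of the 14 other bZIP proteins listed as AP-1 partners, 13 had a probe and 7 were detected. At the adjusted threshold Atf3 and Maff were higher with Bcl11b and 0 were lower. Over all probes detected on at least 1 array 0.468% were called higher and 1.20% lower, and 2.97% were higher and 7.09% lower in groups of arrays that did not overlap. The median log2 change of the 7 was -0.00059, beside -0.016 for all 11755 detected probes. Atf3 (ILMN_2619408), a stress-induced bZIP factor that pairs with Jun proteins, had log2 normalized signals of 8.25, 8.47, 7.91 and 8.05 on the mock arrays and 9.67, 9.44, 9.78 and 9.67 on the Bcl11b arrays. The groups were apart, with a difference of 1.47 (standard error 0.14), or 2.76-fold, and an adjusted p from limma of 0.0196. Without normalization between arrays the Atf3 difference was 0.76 (adjusted p from limma = 0.125). Maff (ILMN_1256996), a small Maf protein without a transactivation domain, had log2 normalized signals of 7.99, 7.62, 7.69 and 7.42 on the mock arrays and 8.68, 8.62, 8.87 and 8.53 on the Bcl11b arrays. The groups were apart as well, by 1.00 or 1.99-fold (adjusted p from limma = 0.0558), but leaving out any 1 of mock replicates 3 and 4 and Bcl11b replicates 1, 2 and 3 ended the call (adjusted p between 0.116 and 0.183 from limma). Jdp2 (listed as Jundm2, ILMN_2663585), which pairs with Jun and represses AP-1 sites, had non-overlapping groups 1.59-fold lower with Bcl11b and did not pass the adjusted threshold (log2 difference -0.67, adjusted p from limma = 0.199), though it did with arrayWeights (adjusted p = 0.0917). Its mock signals were 9.54, 8.91, 9.00 and 9.01 and its Bcl11b signals 8.40, 8.53, 8.60 and 8.25 on the log2 scale, so the closest arrays of the groups were mock replicate 2 and Bcl11b replicate 3. The brightest Atf2 probe (ILMN_3158265) differed by -0.18 (adjusted p from limma = 0.674) and a dimmer probe of the same gene by 0.37 (adjusted p = 0.460), both with overlapping groups.

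The list of AP-1 inputs held 17 kinases and transcription factors that act on the Fos and Jun genes or proteins, of which 16 had a probe and 13 were detected. None passed the adjusted threshold in limma, in either direction, and 0 were higher and 3 lower at an unadjusted p under 0.05 with a log2 change of at least 0.32. Over all detected probes these shares were 4.32% higher and 10.5% lower. The median log2 change of the list was -0.035. The 3 lower genes were Elk3, a ternary complex factor that binds with Srf at serum response elements (log2 difference -0.32, adjusted p from limma = 0.360), the kinase gene Rps6ka1, which encodes RSK1 (-0.42, adjusted p = 0.421), and Mapk9, which encodes JNK2 (-0.33, adjusted p = 0.474). Mapk8, the JNK1 gene, differed by -0.29 (adjusted p from limma = 0.375). All 4 had overlapping groups. Elk3 had log2 normalized signals of 12.71, 12.68, 12.68 and 12.66 on the mock arrays and 12.26, 12.19, 12.30 and 12.68 on the Bcl11b arrays. Bcl11b replicate 4 lay among the mock arrays, and without it the difference was -0.43 with an adjusted p from limma of 0.0126. With division by the array median Elk3 differed by -0.087 and Mapk9 by -0.24, both short of the fold limit. Rps6ka1 then differed by -0.37 (unadjusted p from limma = 0.0808), so none of the 3 stayed past the unadjusted threshold. A dimmer Elk3 probe (ILMN_1224644), detected on every array, differed by -0.0033 (95% interval -1.11 to 1.11), and a dimmer Mapk9 probe (ILMN_2716527) differed by -0.021.

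Of 23 genes known as AP-1 targets, all had a probe and 20 were detected. At the adjusted threshold 1 was higher and 0 were lower in limma, beside 0.468% higher and 1.20% lower over all detected probes. At the unadjusted threshold with its fold limit 3 were higher and 3 lower, beside 4.32% and 10.5%. The median log2 change was 0.18, beside -0.016 for all detected probes. Mmp13 (ILMN_2737685), which encodes collagenase 3 and whose promoter window with TGACTCA is printed above, was detected on 0 mock arrays and on all 4 Bcl11b arrays. Its detection p-values on the mock arrays, 0.0288, 0.0238, 0.0326 and 0.0125, lay just above the limit of 0.01. Before normalization the groups overlapped. The deposited signals were 102.8, 54.5, 65.5 and 88.8 on the mock arrays and 105.9, 94.7, 65.5 and 126.7 on the Bcl11b arrays. The measured log2 normalized signals of Mmp13 were 6.10, 5.86, 5.78 and 6.01 on the mock arrays and 7.11, 7.03, 6.85 and 7.06 on the Bcl11b arrays. The measured log2 difference was 1.07 (adjusted p from limma = 0.0126). On the normalized scale this is a rise of at least 1.61-fold, a bound that was not itself tested. The bound took the dimmest detected signal or the probe's own signal on each mock array, whichever was higher. Without normalization between arrays the measured log2 difference of this probe was 0.34 (limma, adjusted p = 0.529). The other Mmp13 probes were detected on no array. Mmp10, the stromelysin 2 gene, was 1.20-fold higher in groups that were apart (log2 difference 0.26, adjusted p from limma = 0.182). Sphk1, a sphingosine kinase gene, was 1.49-fold lower (log2 difference -0.57, adjusted p = 0.218 from limma) and Vegfa, an angiogenic growth factor gene, differed by -0.32 (adjusted p = 0.251), in both cases with groups apart. A further Vegfa probe (ILMN_3121255) differed by -0.33, also with groups apart. The first Vegfa probe passed the fold limit narrowly (log2 difference -0.3221, limit 0.3219). It fell short with neqc (-0.319) and with division by the array median (-0.260). Leaving out single arrays gave -0.364 to -0.259. Also past the unadjusted threshold, and named after their values were seen, were the heme oxygenase gene Hmox1 on the higher side (0.45, adjusted p from limma = 0.346) and the stromelysin 1 gene Mmp3 on the lower side (-0.64, adjusted p = 0.373). Il6 was detected on no array, and no fold is given for it.

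**Figure D5:**
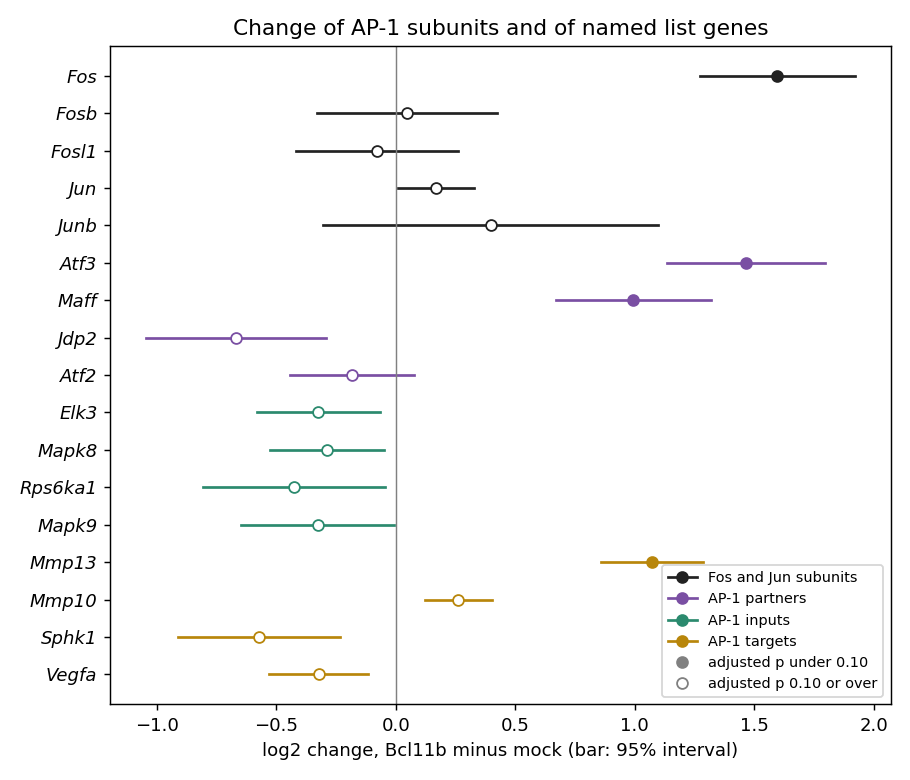
Log2 difference between Bcl11b and mock with its 95% interval for the 5 measured subunits and the named partners, inputs and targets, filled where the adjusted p from limma is under 0.10 (Mmp13, not detected on mock arrays, is drawn from its measured means). Fos at 1.60 and Atf3 at 1.47 lie farthest to the right, and the intervals of Fosb, Fosl1 and Junb span 0.

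The probes whose signal followed each subunit most closely over the 8 arrays were found among those detected on every array, and the correlations are descriptions over points that share arrays and, for Fos, the difference between the groups. The 5 most like Fos were Apobec1, which encodes the apolipoprotein B mRNA-editing deaminase (Pearson r = 0.991), 1110008J03Rik (0.981), Fbxw7, which encodes a ubiquitin ligase subunit (0.977), Dcn, which encodes the matrix proteoglycan decorin (0.966), and Atf3 (0.958). Their log2 differences between the groups were 1.60, 0.43, 0.54, 1.47 and 1.47, all upward, with adjusted p from limma of 0.0300, 0.00187, 0.00297, 0.0492 and 0.0196. These 5 probes were picked for likeness to Fos, whose signal carries the group difference, so their direction and p add no separate support. Under the alternatives between 2 and 5 of these 5 probes stayed among the 5 most like Fos. For the other subunits the closest probes did not differ between the groups at the adjusted threshold. Fosb was followed by Aoc2 (0.911), Ptgs2 (0.907), which encodes the inducible cyclooxygenase 2 and is one of the listed AP-1 targets, and Vbp1 (0.885). Fosl1 was followed by B230317C12Rik (0.964), Bxdc1 (0.950) and Acta2 (0.945), which encodes smooth muscle actin. Jun was followed by Gripap1 (0.928), Leng1 (0.919) and Zfp535 (0.915), and Junb by Sf3a2 (0.987), Centb5 (0.984) and Slc35c2 (0.984). No probe stood among the nearest of more than 1 subunit.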

How the data were processed

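The authors deposited 1 intensity per probe and array, the bead signal after background subtraction in GenomeStudio, without normalization between arrays. They also deposited a detection p-value per probe against negative control beads. Samples were grouped by the labels. No pair of arrays shared an identical signal at any probe. Following the study's methods, quantile normalization was applied, here with a floor of 1 and log2, followed by limma (3.58.1, R 4.3.3) with lmFit and eBayes over all 25697 probes, no covariate and Benjamini-Hochberg adjustment. Calls used an adjusted p of 0.10, or an unadjusted p of 0.05 with a log2 change of 0.32 either way, the study's fold limit. How the study treated signals at or below 0 is not given in the sources used here. The fit was tested on simulated data with independent noise of equal size for all probes, which lack the within-group component that the real arrays share. The number of arrays limits precision.

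The members and gene lists were chosen with earlier results of these data known. Named genes were all member probes, list genes past the adjusted threshold or else the detected ones with the smallest p up to 4 a list (by the brightest probe), and the 5 probes most correlated with Fos and the 3 with each other subunit. Symbols were matched through RefSeq synonyms. The values of 1 listed target are not reported here. Alternatives were other normalizations, neqc, an offset of 16, limma-trend, arrayWeights, a block for the replicate number, detection filters requiring 4 arrays, 1 probe per symbol, and leaving out each array.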

Additional observations from a re-analysis of the deposited data

Results flagged for a closer look

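Among the 34 groups of 4 arrays formed by the members and the named list genes, 3 held an array standing apart from the other arrays of its group by Dixon's 95% criterion, which chance meets in about 1 of 20 groups. None belonged to a Fos or Jun subunit. They were mock replicate 1 for Jundm2 (the Jdp2 probe), the highest of its group at 9.54 in log2 normalized signal, and, for Mapk9, mock replicate 1 (10.62) and Bcl11b replicate 3 (10.43), each the lowest of its group.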

How the results depend on the processing

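The Fos call held under every alternative but 2. Without normalization between arrays Fos differed by 0.87 (adjusted p from limma = 0.143), and with the replicate number as a block by 1.60 (adjusted p = 0.152). Leaving out single arrays gave 1.51 to 1.70 (adjusted p 0.00895 to 0.0682). The deviations of same-numbered arrays of the groups had correlations of 0.677, -0.630, 0.182 and 0.695. With 65.8% of the within-group variance on 1 component, these values cannot decide whether equal numbers mark pairs. The main fit took no pairing, and the block gives the other reading. Under the block 0 members, 0 AP-1 partners and 45 probes were called, and Fos against Fosb, Fosl1, Jun and Junb gave 1.55, 1.68, 1.43 and 1.20 with an exact sign-flip p of 0.125, the smallest possible (adjusted 0.156). Without normalization 0 members, 0 partners, 0 targets and 57 probes were called (19 higher, 38 lower), and 2 members passed the unadjusted threshold (Fos higher, Fosl1 lower). Without mock replicate 2, 2 members passed it (Fos and Junb, higher), and the range over arrays left out was 1 to 2. The 252 probes called became 146 with the array median (100 higher, 46 lower), 413 with neqc, 107 with the lowest signal shifted to 1, 45 with limma-trend (35 higher, 10 lower), 642 with arrayWeights, and 87 to 637 with single arrays left out, the highest without mock replicate 2 and the lowest without Bcl11b replicate 1. Called partners numbered 1 with limma-trend, 3 with arrayWeights (2 higher and 1 lower, Jdp2, adjusted p from limma = 0.0917) and 1 to 2 with single arrays left out. Called inputs numbered 1 with arrayWeights and 0 to 1 with arrays left out (Elk3, without Bcl11b replicate 4). Called targets numbered 2 with arrayWeights and 1 to 2 with arrays left out (Sphk1 added without mock replicate 2). Signs turned for Fosb (-0.68 without normalization, -0.038 without mock replicate 3, -0.068 without Bcl11b replicate 2, against up to 0.12 with other arrays left out), Fosl1 (0.0042 with the array median, 0.012 with arrayWeights, 0.051 without mock replicate 1, against down to -0.17 with other arrays left out), and, without normalization, Jun (-0.53), Junb (-0.28) and Mmp10 (-0.44). Atf3 lost its call without normalization (adjusted p from limma = 0.125) and with the block (0.211), and Mmp13 without normalization (0.529). The cause of these changes was not tested. Signals of 5255 probes lay at the floor on every array, none of them a member.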
